A study of Mus musculus with 16 samples.

Results

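The effect of losing Cpeb2 was described in non-clonogenic luminal cells, 1 of 4 epithelial populations sorted from the mouse mammary gland. The 4 arrays whose source is labelled non-clonogenic luminal were used, out of 16 in the series, and every probe set with a single gene name was compared. They came from 4 female mice aged 10 weeks, 2 of genotype Sox2-Cre +/+ ; Cpeb2 -/- and 2 of genotype Sox2-Cre +/+ ; Cpeb2 +/+, of the line DMI on a strain labelled C57BL/6J 129. Per the series' design text these cells were gated as Epcam high, CD49f low, Sca1 positive and CD49b negative. The same mice gave ductal progenitors, alveolar progenitors and myoepithelial cells, which serve here for comparison. All 4 mice carried the Cre, and mice without it were not analysed here. Each knockout shared its father and mother with 1 of the wild types, which gave 2 parent pairs. Expression values are log2 as deposited, and pairs of values are printed in the order of parent pair 1 and parent pair 2. Where values stand as a pair against a pair, wild type comes first. The arrays measured RNA, not translation or protein.

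CPEB2 is a cytoplasmic polyadenylation element binding protein, an RNA-binding protein that recognises sequences near the 3′ ends of transcripts and controls how long their poly(A) tails are and how well they are translated. Sox2-Cre is active in the early embryo before the body's tissues separate, so a deletion made by it is carried by all of them. The luminal cells of the mammary gland line its ducts. Those that form few colonies in culture are largely the hormone-sensing cells, which express the receptors for estrogen and progesterone and pass hormone signals to their neighbours through secreted factors such as RANKL (Tnfsf11), amphiregulin and Wnt4. The title of the series places the comparison in the question of how CPEB2 acts on RANKL and on mammary development.

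The population had the markers of hormone-sensing luminal cells. The 17 measured hormone-sensing markers averaged 9.75 to 10.06 in the wild-type arrays and 10.24 to 10.74 in the knockout arrays, against 7.12 to 7.80 in alveolar progenitors. Ductal progenitors had nearly the same levels, 9.39 to 9.90 in wild type and 10.34 to 10.70 in knockout, so these markers do not separate the 2 populations. The 18 alveolar and secretory markers averaged 6.82 in both wild-type arrays and 6.54 to 6.64 in the knockout arrays, against 9.78 to 10.25 in alveolar progenitors. Kit, the receptor that marks alveolar progenitors, lay at 4.41 and 4.47 in wild type and 4.48 and 4.67 in knockout, below the lower quartile of all probe sets, which was 5.08 to 5.13 in these arrays. The 15 pan-luminal markers averaged 11.03 to 11.21 in wild type and 11.33 to 11.41 in knockout, and the 14 myoepithelial markers 6.36 to 6.39 and 6.52 to 6.56, against 11.25 to 11.45 in myoepithelial cells. Both knockout arrays lay above both wild-type arrays for 10 of the pan-luminal (66.7%) and 9 of the myoepithelial markers (64.3%), against 28.7% of all genes. The basal keratin Krt14 lay between 6.29 and 6.67, and Ptprc, which marks leukocytes, between 3.88 and 3.92. The 20 leukocyte markers averaged 5.62 to 5.63 in wild type and 5.69 to 5.70 in knockout. Of these, 9 lay wholly above wild type, where 28.7% of all genes did, 1 wholly below, and 0 passed by limma. Among the brighter ones, Cd4 read 7.09 and 7.06 against 7.32 and 7.34, whereas Cd14 overlapped (7.41 and 6.91 against 6.84 and 7.01). The 13 endothelial markers averaged 5.93 to 6.00 and 5.96 to 6.06, and the 5 red cell markers 8.29 to 8.36 and 8.19. Fibroblast markers averaged lower in the knockout arrays: the 12 measured genes lay at 6.41 to 6.56 in wild type and 5.97 to 6.33 in knockout, with 7 of the 12 lower on average in knockout and a median difference of -0.07. Of the 12, 0 passed by limma in either direction, and 3 lay wholly below wild type (25%, against 22.1% of all genes). Dcn was 1 of those 3 (8.18 and 9.65 against 7.59 and 7.20), whereas the groups of Col3a1 overlapped (9.37 and 8.52 against 8.84 and 7.12). Both are extracellular matrix genes. Replicate arrays correlated at r = 0.988 in wild type and 0.984 in knockout across probe sets.

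The targeted gene was lower in knockout but not absent. Cpeb2 read 8.33 and 8.66 in wild type and 6.42 and 7.67 in knockout on its brightest probe set, a difference of -1.45 ± 0.41 (SE), and did not pass the test (adjusted p = 0.0933). The groups did not overlap, and knockout array 2 kept the higher level. Its 2 other probe sets differed by -0.51 and -0.33. The sources used here do not place the probe sets relative to the deleted part of the gene, so they check the labels only in part. The related Cpeb1, Cpeb3 and Cpeb4 differed by -0.02, 0.22 and -0.42, and none of these 3 differences passed. Averaging all probe sets turned the sign for Cpeb3 and Cpeb4, and leaving out single arrays turned it for Cpeb1 and Cpeb4. Of the 200 measured genes nearest to Cpeb2 on its chromosome, 4 passed as lower and 1 as higher, against 1.73% and 0.339% of all genes. The 4 included Tyms, a member of the replication list.

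More genes were lower than higher in knockout. A gene was called where the Benjamini-Hochberg adjusted p of the limma fit lay under 0.05. Of 17097 genes tested, 295 passed as lower in knockout (1.73%) and 58 as higher (0.339%), while the median difference over all genes was 0.03 on the log2 scale. Called or not, 9771 genes had the higher mean in knockout and 7326 (42.8%) the lower, the base for counts of means in the lists. The 4 lists of cell division, DNA replication, recombination repair and histones held 246 measured genes, of which 70 passed as lower and 0 as higher, and 227 had the lower mean in knockout. The other 225 genes that fell and all 58 that rose lay outside those lists, 136 and 28 of them by 2-fold or more. A place outside the lists does not show that a gene is unrelated to division, and this was not tested. Among the 295 the median difference was -1.39 in parent pair 1 and -1.23 in parent pair 2, and among the 58 it was 0.94 and 0.90. By role, 15 of 799 genes for secreted products, matrix and proteases fell (1.88%) and 5 rose (0.626%). That role also holds membrane and surface proteins, and its 5 rises were Rhbdl2, Tmprss2, Ctsl, Muc16 and Ly6d. Of 653 transport genes 7 fell (1.07%) and 1 rose (0.153%), and of 550 receptor genes 4 fell (0.727%) and 3 rose (0.545%). Of 498 metabolic genes 13 fell (2.61%) and 2 rose (0.402%). With the parent pair as a block, 363 genes passed as lower and 89 as higher. In these bulk samples, fewer cells that express a gene and less RNA per cell cannot be told apart.

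**Figure D1:**
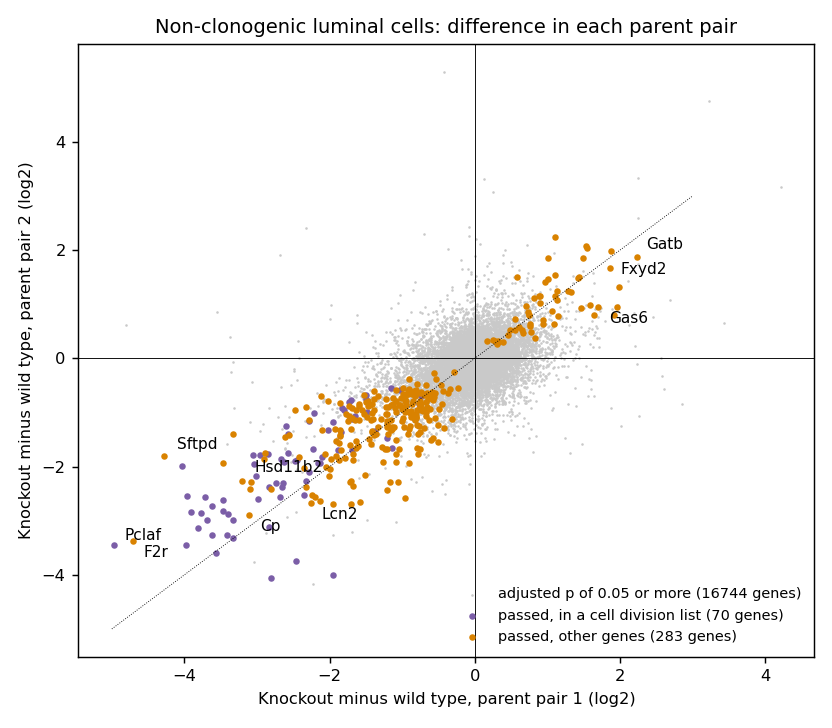
Difference between knockout and wild type (log2) in parent pair 1 on the horizontal axis and in parent pair 2 on the vertical axis, 1 point per gene, with the dotted line marking equal differences. Grey points did not pass the test, purple points passed and belong to the cell division lists, and orange points passed and do not. The 70 called division genes all lie to the lower left, and Gatb, Fxyd2 and Gas6 lie to the upper right.

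These counts rested heavily on 2 of the 4 arrays. Without knockout array 2, 20 genes passed as lower and 2 as higher, and without wild-type array 1, 43 and 2. Without knockout array 1 they were 182 and 54, and without wild-type array 2, 267 and 31. Without every array of knockout mouse 2, 0 passed in either direction by limma, with 1376 at an unadjusted p under 0.05. Without every array of knockout mouse 1, 15 and 21 passed, and without those of wild-type mouse 2, 702 and 204. With the 4 arrays fitted alone, 80 and 6 passed. Knockout array 2 also stood apart on the control probes that compare the 3′ end of a transcript with its middle. Its difference was 0.03 for Actb and -0.03 for Gapdh, against 0.22 to 0.39 and 0.21 to 0.43 in the other 3 arrays, and the part of this in the results was not tested. The naming rule took 84 called genes, all with groups that did not overlap, and 0 of them reversed in the settings tried. With such groups, leaving out an array or mouse could hardly turn a sign, so this count is no evidence of stability. Among them, 11 also passed without knockout array 2. They were Lcn2, Cp, Klk1b9, Hsd11b2, Idh1, Cd1d1, Aqp11, Slc18b1, Ripply3 and Fam111a, which fell, and Muc16, which rose. Without wild-type array 1, 19 of the 84 passed. Quantile normalization ended the call for Lin52, Tmprss6, Mgst2, Tcf7l1, Fxyd2 and Mrps22 among the genes below, and fitting without the trend of spread on level for Lin52, Tmprss6, Mgst2, Nectin3, Fxyd2, Bcl2l1 and Prkci.

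Genes of cell division and DNA replication fell in knockout. The median differences were -1.42 over 109 mitosis genes and -1.40 over 70 replication genes, with 36 and 28 called. Pclaf, a partner of the replication clamp, read 10.62 and 9.08 in wild type and 5.65 and 5.62 in knockout. Of 19 measured genes of nucleotide synthesis 4 fell, against 1.73% of all genes. They included both subunits of ribonucleotide reductase, Rrm2 (10.58 and 9.04 against 6.55 and 7.05) and Rrm1 (10.62 and 9.56 against 7.98 and 7.25), and the thymidylate synthase Tyms (10.74 and 9.76 against 7.73 and 7.58). All 3 supply the precursors of DNA and are also members of the replication list. Tyms did not pass when all probe sets of a gene were averaged. Recombination and Fanconi repair genes fell in 5 of 35 cases, among them Brca1 (8.62 and 8.12 against 6.89 and 7.31) and Rad51c (7.41 and 6.88 against 5.92 and 5.89). Of the regulators of quiescence, Rbl1 and Lin52, components of the complex that represses division genes, fell by 2.12 and 0.64. Outside the lists, the largest falls included Fam111a (-2.74), Atad2 (-2.69) and Diaph3 (-2.61), of which Atad2 did not pass when averaged.

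Among secreted products, 2 genes that link defence to iron handling, Lcn2 and Cp, fell in both parent pairs. The family of mucins and secreted defence proteins had 134 measured genes, around a median difference of 0.08. Of these, 4 fell (2.99%) and 2 rose (1.49%), against 1.73% and 0.339% of all genes. The family also holds surface proteins of the Ly6 type, and the 2 rises were Muc16 and Ly6d. Lcn2 encodes lipocalin 2, which binds bacterial siderophores and so withholds iron. It read 10.33 and 10.54 in the wild-type arrays and 8.07 and 7.87 in the knockout arrays. The groups lay far apart compared with the spread within each, and Lcn2 fell 5.51-fold (-2.46 ± 0.17, adjusted p = 7.9e-05). Cp encodes ceruloplasmin, the copper-carrying ferroxidase. Its values were 9.88 and 9.20 in wild type and 6.77 and 6.31 in knockout, an 8.02-fold fall (-3.0 ± 0.29, adjusted p = 0.000884). A second Cp probe set lay near the floor of the arrays at 4.17 and differed by -0.37. Ly6c1, a surface protein of the Ly6 family, went from 9.85 and 9.49 to 7.84 and 7.44, and Saa1, an acute-phase apolipoprotein, from 6.57 and 5.28 to 4.45 and 4.59, where both knockout arrays lay below the lower quartile.

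The sequence just upstream of the start sites of Lcn2 and Cp, which fell, is shown beside that of Pclaf, which fell with the division genes, and of Gadd45g, which rose, so that the short motifs searched for can be seen in place. Sequences are from RefSeq on GRCm38.p6, 250 bases up to the start site on the gene's own strand, with bases matching a motif in capitals. They lie at chr2:32387740-32387989 (minus strand), chr3:19956804-19957053 (plus), chr9:65890073-65890322 (plus) and chr13:51846425-51846674 (plus).
Lcn2: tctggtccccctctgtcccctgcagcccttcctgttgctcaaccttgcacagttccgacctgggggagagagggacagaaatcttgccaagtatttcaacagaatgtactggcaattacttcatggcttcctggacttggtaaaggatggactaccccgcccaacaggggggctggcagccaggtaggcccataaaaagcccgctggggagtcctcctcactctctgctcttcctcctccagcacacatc
Cp: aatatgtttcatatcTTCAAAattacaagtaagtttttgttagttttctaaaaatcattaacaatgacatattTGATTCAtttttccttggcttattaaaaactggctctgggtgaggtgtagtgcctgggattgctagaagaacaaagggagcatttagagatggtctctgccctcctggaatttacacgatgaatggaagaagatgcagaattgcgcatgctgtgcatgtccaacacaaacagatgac
Pclaf: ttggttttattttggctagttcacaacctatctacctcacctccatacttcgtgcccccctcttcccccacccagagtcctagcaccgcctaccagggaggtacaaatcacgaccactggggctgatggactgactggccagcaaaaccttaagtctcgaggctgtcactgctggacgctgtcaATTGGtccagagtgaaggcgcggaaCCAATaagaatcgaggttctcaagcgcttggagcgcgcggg
Gadd45g: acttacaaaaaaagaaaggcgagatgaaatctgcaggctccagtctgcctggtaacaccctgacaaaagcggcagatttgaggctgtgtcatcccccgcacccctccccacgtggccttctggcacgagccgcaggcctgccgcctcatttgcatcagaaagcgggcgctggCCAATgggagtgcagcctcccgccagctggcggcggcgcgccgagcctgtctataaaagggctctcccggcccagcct
The motifs were the CCAAT box (CCAAT), the cell cycle homology region (TTTGAA), the E2F core (GCGGGAA), the AP-1 site (TGANTCA), an NF-kB site (GGGNNTTTC), a STAT site (TTCNNNGAA) and the estrogen response half-site (AGGTCA), each searched on both strands, and none is contained in another. No motif matched in the Lcn2 window. RefSeq gives Cp a second start, whose window at chr3:19956999-19957248 is not printed and held CCAAT at -118. In the Cp window shown the AP-1 letters began at -177 relative to the start and the cell cycle homology letters at -235. The Pclaf window held CCAAT at -66 and -41, and the Gadd45g window held it at -78. Over the 13605 measured genes with a promoter entry, 39.6% had a CCAAT box, 14.0% the cell cycle homology region, 6.84% the AP-1 letters and 6.48% the E2F core, 4.48% the NF-kB letters, 7.59% the STAT letters and 14.7% the estrogen response half-site. Among the 59 called division genes with an entry the first 4 of these shares were 55.9%, 25.4%, 0.0% and 11.9%. Among the 194 other genes that fell they were 47.9%, 23.7%, 5.15% and 14.9%, and among the 48 that rose 33.3%, 14.6%, 14.6% and 0.0%. The NF-kB, STAT and estrogen response letters stood in 6.78%, 3.39% and 10.2% of the division genes, 4.12%, 9.79% and 14.4% of the other genes that fell, and 14.6%, 6.25% and 18.8% of those that rose. The shares are descriptions of the letters in these windows and were not tested.

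Sftpd, the collectin surfactant protein D, read 10.41 and 8.47 in wild type and 6.14 and 6.67 in knockout, an 8.23-fold fall whose size differed between the parent pairs (-4.28 and -1.80). Wfdc12, a small secreted protease inhibitor with antibacterial activity, went from 9.65 and 8.75 to 6.76 and 7.0 (-2.32 ± 0.34, adjusted p = 0.00803), the 1 call among 82 protease inhibitors. Il18, an interleukin-1 family cytokine, was the 1 call among 102 chemokines, interleukins and related cytokines, with 6.49 and 6.87 in wild type and 5.87 and 5.35 in knockout. In the other direction, the membrane mucin Muc16 read 4.70 and 4.75 in the wild-type arrays, 5.79 and 5.38 in the knockout arrays and rose by 0.86 ± 0.12 (adjusted p = 0.00803). Both wild-type arrays of Muc16 lay below the lower quartile. The 22 measured NF-kB targets, to which Lcn2 also belongs, had a median of 0.12 with Lcn2 as the single call. Both genes read higher in alveolar progenitors, Lcn2 at 12.73 and 12.56 and Cp at 11.33 and 11.29 in wild type. Of the 18 alveolar and secretory markers, Lcn2 included, 9 had the lower and 9 the higher mean in knockout, with a median of -0.01, and their part in these falls was not tested.

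Among secreted signals, single members changed within families whose medians lay near 0. Of 106 growth factors 1 passed: Tgfb1, the transforming growth factor that restrains epithelial growth, fell from 9.72 and 9.49 to 8.58 and 8.21 (-1.21 ± 0.22, adjusted p = 0.0223). Of 59 semaphorins, ephrins and related cues, Sema3c fell from 7.21 and 7.06 to 5.16 and 5.06. A further Sema3c probe set differed by -0.69. Of 104 matrix genes, Col8a2 fell from 7.07 and 6.84 to 6.26 and 6.26. These 3 genes can also be made by stromal cells. The part of the fibroblast marker values given above was not tested. Gas6, the ligand of the TYRO3, AXL and MERTK receptors, read 6.57 and 7.10 in the wild-type arrays, 8.26 and 8.04 in the knockout arrays and rose 2.5-fold (adjusted p = 0.0251). Its dimmer probe set differed by 0.13, and the mean of the 2 did not pass.

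Proteases changed in both directions, 6 lower (3.66%) and 3 higher (1.83%) among 164 measured, against 1.73% and 0.339% of all genes. The falls were in 3 kallikreins, 2 enzymes of the ADAM and ADAMTS families and the membrane serine protease Tmprss6. Klk1b9 read 8.32 and 8.91 in wild type and 7.05 and 6.99 in knockout (-1.59 ± 0.19, adjusted p = 0.00278), and its relatives Klk1b1 and Klk1b5 fell by 0.80 and 0.51. The kallikrein 1b genes are near-identical copies, so probes may be shared between them, and Klk1b5 lay below the lower quartile in all 4 arrays. Adamts3, a procollagen-processing enzyme, went from 7.35 and 7.04 to 6.11 and 5.36 and Adam8, a membrane metalloprotease, from 8.60 and 8.28 to 6.95 and 7.14. Tmprss6, known for its control of hepcidin in the liver, went from 8.56 and 7.88 to 7.36 and 6.97. The rises were in the rhomboid protease Rhbdl2 (6.82 and 6.50 against 8.35 and 8.58), the serine protease Tmprss2 (10.38 and 9.72 against 11.34 and 11.13) and the lysosomal protease Ctsl (10.12 and 10.63 against 11.18 and 11.50). Adamts3 and Ctsl did not pass when all probe sets of a gene were averaged.

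**Figure D2:**
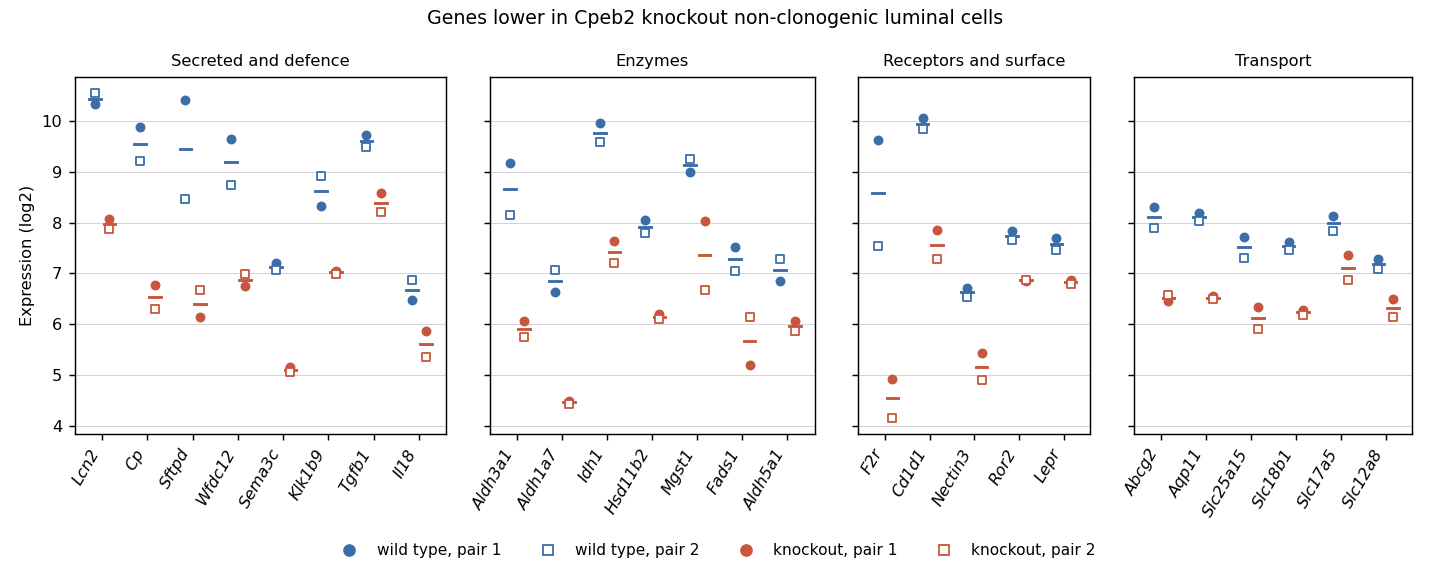
Expression (log2) of 26 genes lower in knockout, grouped by role, in the 4 non-clonogenic luminal arrays. Blue marks wild type and red knockout, filled circles parent pair 1 and open squares parent pair 2, and the short lines the means of 2. The genes were chosen among called genes whose groups do not overlap. By that choice both knockout arrays lie below both wild-type arrays for each gene, for example Lcn2 (10.33 and 10.54 against 8.07 and 7.87) and Slc12a8 (7.28 and 7.09 against 6.49 and 6.14).

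Among detoxifying and redox enzymes single members fell. Of 158 aldehyde, retinoid and steroid dehydrogenases and related enzymes 4 fell and 0 rose (2.53% lower, against 1.73% of all genes), and 101 had the higher mean in knockout around a median of 0.05. Aldh3a1, which oxidises aromatic and lipid aldehydes, read 9.16 and 8.16 in wild type and 6.07 and 5.75 in knockout, a 6.75-fold fall (-2.75 ± 0.35, adjusted p = 0.00477). Aldh1a7, a close relative of the retinaldehyde dehydrogenases, went from 6.63 and 7.08 to 4.50 and 4.44, below the lower quartile in both knockout arrays. Hsd11b2 inactivates glucocorticoids. It read 8.05 and 7.79 in wild type and 6.21 and 6.10 in knockout, with little spread in either group, and fell 3.41-fold (-1.77 ± 0.17, adjusted p = 0.000847). Aldh5a1, the succinate semialdehyde dehydrogenase, fell by 1.10.

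Idh1, the cytosolic isocitrate dehydrogenase and a source of NADPH, belonged to none of these lists. It went from 9.95 and 9.58 to 7.63 and 7.20, a 5.1-fold fall (-2.35 ± 0.22, adjusted p = 0.000834) that was nearly the same in both parent pairs (-2.32 and -2.38). Of 24 NRF2 and glutathione genes the microsomal transferases Mgst1 (9.0 and 9.26 against 8.04 and 6.67) and Mgst2 (7.22 and 8.23 against 6.43 and 6.46) fell. They made up 8.33% of the list, against 1.73% of all genes, and the list's median was -0.07. Of 21 fatty acid and triglyceride genes the desaturase Fads1 fell from 7.52 and 7.05 to 5.19 and 6.15. Fads1 did not pass when its probe sets were averaged, and with the parent pair as a block its adjusted p was 0.0505, within a range of 0.0292 to 0.261 over the alternatives. Among enzymes that rose, Ahcyl2, a relative of S-adenosylhomocysteine hydrolase, went from 9.49 and 9.76 to 10.92 and 11.27 and did not pass when averaged over probe sets. Chst8, which puts sulfate on the N-acetylgalactosamine of hormone glycans, read 5.17 and 6.04 in wild type and 7.13 and 7.0 in knockout. Mettl7a1, a methyltransferase-like membrane protein, went from 8.35 and 8.72 to 9.77 and 10.20 and did not pass when averaged. Dus2, which makes dihydrouridine in transfer RNA, went from 6.05 and 6.13 to 7.16 and 8.37. Gatb, a mitochondrial amidotransferase subunit, had the largest called rise (2.05), from 8.22 and 9.24 to 10.45 and 11.12.

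Receptors and surface proteins held few calls. Across 241 G protein-coupled receptors, 66 receptor kinases, 85 cytokine, TNF and Toll-like receptors and 42 nuclear receptors, 3 genes fell and 1 rose. The shares that fell were 0.415%, 1.52%, 1.18% and 0.0%, each below the 1.73% of all genes. The rise was 0.415% of the G protein-coupled receptors, against 0.339% of all genes. The medians of these families lay between 0.08 and 0.12. F2r encodes PAR1, the thrombin receptor. It read 9.63 and 7.54 in wild type and 4.92 and 4.16 in knockout, a difference of -4.71 in parent pair 1 and -3.38 in pair 2 (-4.04 ± 0.75, adjusted p = 0.0249). Both knockout arrays lay below the lower quartile, so the size of the fall is uncertain, and a dimmer F2r probe set differed by -0.81. F2r is also a gene of fibroblasts, whose marker values are given above, and their part was not tested. The 20 measured genes of thrombin and protease-activated receptors and their partners, F2r included, had a median of 0.12 and no further call.

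Ror2, a receptor for noncanonical Wnt signals, went from 7.83 and 7.65 to 6.86 and 6.87 (-0.88 ± 0.12, adjusted p = 0.00585). Lepr, the leptin receptor, went from 7.70 and 7.45 to 6.88 and 6.79, with its 3 other probe sets at 0.09, -1.08 and 0.02. The rise was in Mrgpra1, a Mas-related receptor better known from sensory neurons, at 5.25 and 5.35 in wild type and 6.53 and 6.60 in knockout. Cd1d1 presents lipid antigens to natural killer T cells and was the 1 call among 16 antigen presentation genes. Its values were 10.05 and 9.84 in wild type and 7.85 and 7.28 in knockout, a 5.21-fold fall (-2.38 ± 0.19, adjusted p = 0.000311), and its second probe set fell as much (-2.42). Among 116 adhesion receptors, Cdh13, a cadherin without a cytoplasmic tail, rose from 6.05 and 6.42 to 7.60 and 8.45. Itgb6, the integrin chain that binds latent TGF-beta, rose from 8.30 and 8.26 to 9.05 and 9.07, and Nectin3, a junction protein, fell from 6.72 and 6.54 to 5.44 and 4.90 on 1 of 5 probe sets, the other 4 differing by -0.03 to 0.16.

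Further surface genes rose from already high levels. Ly6d and Fxyd2, which both mark hormone-sensing luminal cells, went from 10.45 and 10.34 to 11.94 and 12.20 and from 10.03 and 10.12 to 11.89 and 11.78. Tm4sf1, a tetraspanin-like protein, read 10.18 and 11.16 in the wild-type arrays, 12.10 and 11.96 in the knockout arrays, and Vtcn1, the inhibitory immune ligand B7-H4, 8.13 and 8.06 against 9.13 and 9.92. Mal, a protein of apical membrane transport, went from 8.08 and 9.01 to 10.06 and 10.33. Ly6d and Fxyd2 were the 2 calls among the 17 hormone-sensing markers (11.8%, against 0.339% of all genes). Of the 17, 13 had the higher mean in knockout, as did 9771 of all 17097 genes, and their median was 0.23. Tm4sf1 did not pass when its probe sets were averaged, and Fxyd2 did not with array weights.

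**Figure D3:**
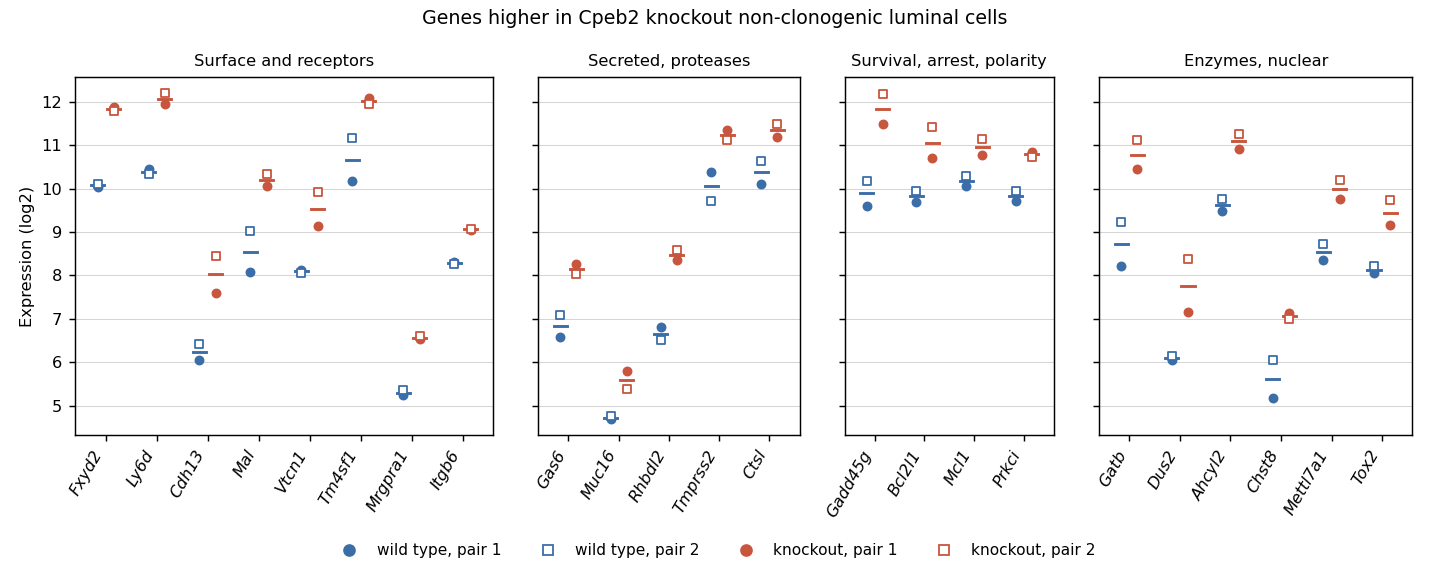
Expression (log2) of 23 genes higher in knockout, grouped by role, in the 4 non-clonogenic luminal arrays. Blue marks wild type and red knockout, filled circles parent pair 1 and open squares parent pair 2, and the short lines the means of 2. The genes were chosen among called genes whose groups do not overlap. By that choice both knockout arrays lie above both wild-type arrays for each gene, for example Muc16 (4.70 and 4.75 against 5.79 and 5.38) and Gadd45g (9.60 and 10.19 against 11.48 and 12.17).

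Transporter and channel families had medians near 0, with 7 genes that fell and 1 that rose. Of 342 solute carriers 4 fell and 0 rose, with a median of 0.06, against 1.73% and 0.339% of all genes. They were the mitochondrial ornithine carrier Slc25a15 (7.71 and 7.31 against 6.35 and 5.92), the vesicular polyamine carrier Slc18b1 (7.62 and 7.46 against 6.29 and 6.19), the lysosomal sialic acid carrier Slc17a5 (8.14 and 7.84 against 7.35 and 6.88) and Slc12a8 (7.28 and 7.09 against 6.49 and 6.14) of the cation-chloride cotransporter family. Slc25a15 and Slc12a8 did not pass when their probe sets were averaged. Slc18b1 changed nearly alike in both parent pairs (-1.30 ± 0.15, adjusted p = 0.00215). Abcg2, the efflux pump that carries drugs and concentrates riboflavin in milk, was the 1 call among 42 ABC transporters and went from 8.30 and 7.90 to 6.45 and 6.57 (-1.59 ± 0.29, adjusted p = 0.0218). Of 51 aquaporins, connexins and claudins 2 fell: Aqp11, an intracellular aquaporin, went from 8.19 and 8.02 to 6.55 and 6.50 and Cldn23, a claudin, from 5.90 and 6.65 to 5.40 and 5.11. A second Aqp11 probe set differed by 0.03. Among 166 channels and channel subunits, Fxyd2, the modulator of the sodium pump described above, was the 1 call, and 0 of 52 ion pump genes passed by limma.

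Regulators of survival, arrest and polarity moved in single members. Of 27 apoptosis regulators, the antiapoptotic genes Bcl2l1 (9.69 and 9.95 against 10.70 and 11.42) and Mcl1 (10.05 and 10.29 against 10.78 and 11.13) rose, and the caspase inhibitor Xiap fell from 8.63 and 8.59 to 7.94 and 7.65. The shares of the list were 7.41% higher and 3.7% lower, against 0.339% and 1.73% of all genes. The 6 other Xiap probe sets ranged from -0.52 to 0.31, and Xiap and Mcl1 did not pass when averaged over probe sets. With the parent pair as a block the adjusted p of Bcl2l1 was 0.0505, within a range of 0.0355 to 0.557 over the alternatives. Gadd45g, a growth arrest gene, rose from 9.60 and 10.19 to 11.48 and 12.17 (1.93 ± 0.41, adjusted p = 0.0363). The CDK inhibitors did not pass: Cdkn1a read 10.20 and 10.87 in wild type and 10.44 and 11.30 in knockout, Cdkn1b 11.26 and 11.54 against 10.78 and 11.63, and Cdkn1c 6.71 and 7.46 against 6.50 and 6.32. For Cdkn1a and Cdkn1b the groups overlapped, and the sign turned when single arrays were left out. Prkci, the atypical protein kinase C of the apical polarity complex, rose from 9.71 and 9.95 to 10.85 and 10.73 and did not pass when averaged. Among nuclear proteins outside the lists, Tox2 rose from 8.05 and 8.21 to 9.15 and 9.74, and Ripply3, a transcriptional repressor, fell from 7.90 and 7.35 to 4.99 and 5.48 (-2.39 ± 0.24, adjusted p = 0.00108). Camkk2, a kinase upstream of AMPK, fell from 8.67 and 7.37 to 5.35 and 5.97 on its brightest probe set and did not pass when averaged.

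The receptors and ligands of the hormone axis did not pass on the probe set that stood for each gene. Esr1, the estrogen receptor, read 10.83 and 11.12 in the wild-type arrays, 11.62 and 11.55 in the knockout arrays, and Pgr, the progesterone receptor, 9.84 and 10.98 against 11.27 and 11.85. Both knockout arrays lay above both wild-type arrays in each case, and the differences were 0.61 ± 0.23 (adjusted p = 0.204) and 1.15 ± 0.45 (adjusted p = 0.219). Of the 2 other Pgr probe sets, 1 was higher by 1.55 and passed where every probe set was tested (adjusted p = 0.0294), and 1 differed by 0.40. The adjusted p of the Pgr gene ranged from 0.0221 to 0.795 over the alternatives, and it passed without every array of wild-type mouse 2. The luminal factors Foxa1 (-0.44 ± 0.41) and Gata3 (-0.21 ± 0.27) did not pass, and neither did the alveolar factor Elf5 (0.25 ± 0.36). For Gata3 and Elf5 the sign turned without single arrays. Tnfsf11 RNA was near the lower quartile in all 4 arrays (5.48 and 5.24 against 5.15 and 5.35), as was that of its receptor Tnfrsf11a (5.34 and 5.25 against 5.70 and 5.24), and neither difference held its sign when arrays were left out. Of 25 estrogen response genes and 18 progesterone, RANKL and paracrine genes, 0 passed in either direction by limma, and the medians were 0.04 and 0.16. Igf2, a growth factor of the second list, read 7.53 and 6.58 in wild type and 6.20 and 6.16 in knockout, without overlap, and did not pass (-0.88, adjusted p = 0.135).

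Some lists leaned one way with few calls or none. Of 34 oxidative phosphorylation genes 0 passed, but 28 had the lower mean in knockout, the median was -0.29, and both knockout arrays lay below both wild-type arrays for 21 (61.8%), against 22.1% of all genes. Ndufb8 of complex I read 11.90 and 11.77 in the wild-type arrays, 11.32 and 11.07 in the knockout arrays, and Cox7a2 of complex IV 12.85 and 12.79 against 12.42 and 12.50. Mitochondrial ribosomal proteins had a median of -0.31, with 61 of 73 lower on average, 43 (58.9%) lying wholly below wild type and 4 called. The called share was 5.48%, against 1.73% of all genes. The called ones were Mrps25 (7.80 and 7.67 against 6.71 and 6.68), Mrps22 (9.28 and 9.11 against 8.24 and 8.24), Mrps36 (10.57 and 10.24 against 9.58 and 9.59) and Mrpl42 (11.38 and 11.13 against 10.05 and 10.44), of which Mrpl42 did not pass when averaged. Cytosolic ribosomal proteins had a median of -0.07 over 31 genes and 0 calls.

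Glycolysis and hypoxia genes leaned upward, with 27 of 30 higher on average and a median of 0.43, but 6 lay wholly above wild type, where 28.7% of all genes did, and 0 passed. Pkm, the pyruvate kinase gene, read 11.24 and 11.35 in the wild-type arrays, 11.68 and 12.15 in the knockout arrays, and Pfkfb3, a driver of glycolytic flux, 9.94 and 10.68 against 11.44 and 11.60. Without knockout array 2 the list's median was -0.05. The unfolded protein and integrated stress response had a median of 0.33, with 26 of 28 genes higher on average and 0.08 in parent pair 1 against 0.33 in pair 2. Without knockout array 2 its median was 0.00407. Its chaperone Hspa5 read 11.61 and 11.68 in wild type and 12.12 and 11.90 in knockout. Circadian clock genes had a median of 0.37, and 11 of 17 (64.7%) lay wholly above wild type, close to the shares of the pan-luminal and myoepithelial markers given above, for example Bhlhe41 (7.94 and 8.08 against 8.62 and 8.66) and Nr1d2 (9.48 and 9.38 against 10.10 and 9.87). Interferon-stimulated genes had a median of -0.28 that came from parent pair 2 (-0.58) more than from pair 1 (-0.04), as in Ifit1 (8.56 and 10.06 against 8.14 and 7.54). Without every array of wild-type mouse 2 that median was 0.05. Of the lists on immediate early genes, heat shock, p53 targets, Notch and insulin signalling, 0 members passed, and the Wnt and TGF-beta lists had 1 call each, Tcf7l1 (-0.93) and Tgfb1.

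**Figure D4:**
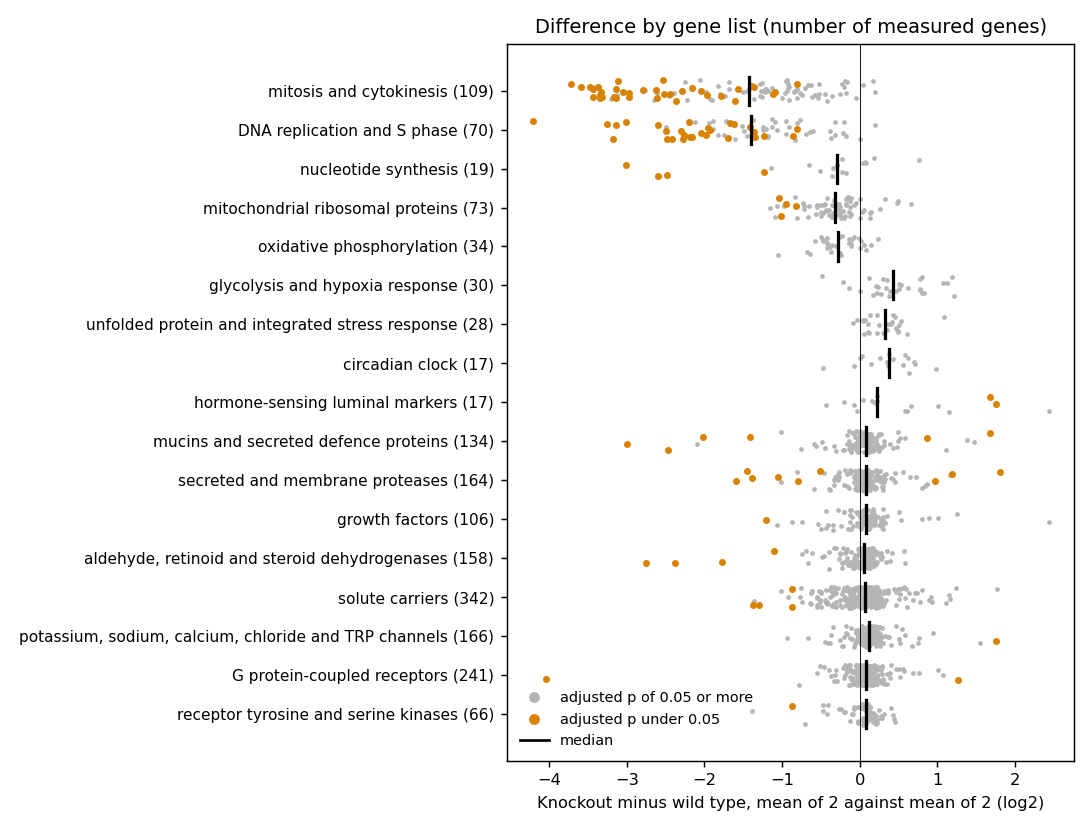
Difference between knockout and wild type (log2, mean of 2 arrays against mean of 2) on the horizontal axis for each measured gene of 17 lists or families, with the number of genes in brackets. Orange points passed the test, grey points did not, and the black line is the median. Mitosis and replication genes lie far to the left, around -1.42 and -1.40, whereas the transporter, receptor and protease families sit close to 0 with single genes away from it.

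Some large rises that did not pass were picked out after their values were seen. In the first 4 below the replicate arrays lay far apart. Nrxn3, a neuronal adhesion gene, read 4.34 and 5.82 in wild type and 7.56 and 10.57 in knockout (adjusted p = 0.103). With the parent pair as a block it passed (adjusted p = 0.0474, within 0.0202 to 0.530 over the alternatives). Aoc1, a diamine oxidase that breaks down histamine, read 5.83 and 9.40 against 10.05 and 12.56 (adjusted p = 0.214). Col6a3, a collagen chain, read 6.21 and 8.01 against 8.47 and 11.35, and Ptn, the growth factor pleiotrophin, 8.08 and 7.28 against 7.66 and 12.57. In all 4 the highest value was that of knockout array 2, and the rise of Ptn reversed without it. Slc5a5, the sodium iodide symporter, was the largest rise among the solute carriers, with 10.20 and 11.16 in the wild-type and 12.31 and 12.59 in the knockout arrays, and did not pass (adjusted p = 0.176). A second Slc5a5 probe set was higher by 2.46 and did not pass where every probe set was tested by limma (adjusted p = 0.0543).

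The knockout effect there was set against the mean effect in the other 3 populations, which came from the same 4 mice. Of 17097 genes 5 passed (0.0292%), all with a lower effect in non-clonogenic luminal cells, and 981 had an unadjusted p under 0.05. They were Lcn2, Cp, Cd1d1, Clic6 and 1 gene model without an established name. With the parent pair as a block, 3 passed, and Clic6 did not. The Lcn2 effect lay -2.56 ± 0.19 from that of the other populations (adjusted p = 0.000206). Ductal progenitors read 12.20 and 11.67 in wild type and 11.61 and 11.80 in knockout, alveolar progenitors 12.73 and 12.56 against 12.89 and 12.88, and myoepithelial cells 12.57 and 12.40 against 12.77 and 12.78, so Lcn2 read higher in each of them than in non-clonogenic luminal cells of either genotype. Against each of the 3 alone the difference in effect also passed (-2.23, -2.70 and -2.75). The Cp effect lay -2.70 ± 0.33 away (adjusted p = 0.0168). Cp also fell in ductal progenitors (-1.38, adjusted p = 0.0225), and the difference between the 2 populations' effects did not pass (-1.63). For Cp the difference from the other populations did not pass when its probe sets were averaged.

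Cd1d1 also fell in ductal progenitors, from 9.67 and 9.55 to 7.60 and 7.53, and lay between 7.08 and 7.99 in alveolar progenitors and myoepithelial cells of both genotypes. Its effect lay -1.84 ± 0.22 from the mean of the other 3 (adjusted p = 0.0168). Clic6, an intracellular chloride channel family member, did not pass in non-clonogenic luminal cells (6.48 and 6.57 against 6.05 and 6.10) on the probe set used. Its second probe set differed by -0.97 and passed there where every probe set was tested (adjusted p = 0.0201). Clic6 rose in alveolar progenitors (8.89 and 9.13 to 10.68 and 10.93). Its difference between populations (-1.21 ± 0.17, adjusted p = 0.0376) set the -0.45 of non-clonogenic luminal cells against effects of 1.79 in alveolar progenitors, 0.37 in ductal progenitors and 0.12 in myoepithelial cells. Against alveolar progenitors alone, 44 genes passed (0.257%), against myoepithelial cells 30 (0.175%) and against ductal progenitors 2 (0.0117%), Lcn2 and the mucin Muc15. Genes whose effect differed from both alveolar progenitors and myoepithelial cells included Hsd11b2 (-1.58 and -1.96), Klk1b9 (-1.49 and -1.59), Ripply3 (-2.51 and -2.36) and Ror2 (-0.98 and -1.04). Idh1 and Mal differed from alveolar progenitors (-2.03 and 2.56), and Tgfb1, Aqp11 and Ly6c1 from myoepithelial cells (-1.88, -1.56 and -2.47). In ductal progenitors the same genes had effects of -1.44 for Hsd11b2, -1.10 for Klk1b9, -2.51 for Ripply3, -0.58 for Ror2, -2.20 for Idh1, 1.64 for Mal, -0.57 for Tgfb1, -1.25 for Aqp11 and -1.64 for Ly6c1. All but that of Tgfb1 passed there, and none of these differed from non-clonogenic luminal cells by the test. A difference that misses the threshold does not show that the effects were alike.

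**Figure D5:**
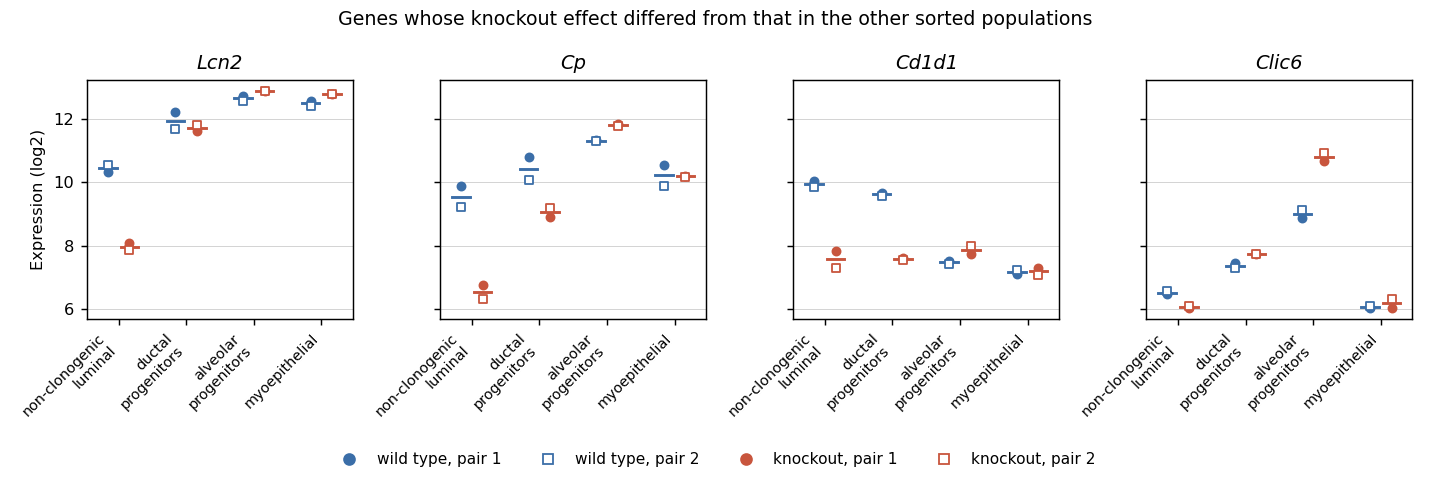
Expression (log2) of Lcn2, Cp, Cd1d1 and Clic6 in the 4 sorted populations. Blue marks wild type and red knockout, filled circles parent pair 1 and open squares parent pair 2, and the short lines the means of 2. The knockout arrays fall away from the wild-type arrays for Lcn2 in non-clonogenic luminal cells, for Cp and Cd1d1 there and in ductal progenitors, and Clic6 is higher in knockout alveolar progenitors.

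With 2 arrays against 2 the smallest two-sided p that an exact permutation test of a single gene can give is 1 in 3, so the calls rest on the spread that limma pools over genes and groups. The labels name separate mice, and each population of a mouse was measured on 1 array.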

How the data were processed

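RNA was measured on Affymetrix mouse arrays. Per the labels' protocols, cells were sorted fresh, 15 ng of total RNA went into a whole transcriptome amplification, and 8 µg of the product was biotinylated. The values are log2 expression per probe set as deposited by the authors, and RMA and limma are named in the submitters' processing notes without a role. These sources name no background correction, batch correction or filter. The number of arrays, 2 per genotype and population, limits the precision.

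Probe sets were named from the platform annotation: of 45141, 28898 had 1 gene symbol, 551 several and 15588 none, and 104 were controls. Each of 17097 genes was represented by its probe set of highest mean. limma 3.58.1 (R 4.3.3, statmod 1.5.0) was fitted to all 16 arrays with 8 group means, the mouse as a random block (consensus correlation 0.0383) and a trend of spread on level, with Benjamini-Hochberg adjustment over all genes. The fit was tested on simulated data with independent noise in each array. Those data held no effect of mouse or parent pair, so that test does not cover the dependence on single mice. Differences are knockout minus wild type, on the log2 scale.

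Pairs come from the father and mother given in the labels, which do not say that mice were littermates. Deviations of arrays with the same parents correlated at 0.0737 in non-clonogenic luminal cells, -0.00688 in ductal progenitors, 0.0593 in alveolar progenitors and -0.0432 in myoepithelial cells.

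The named genes were the Cpeb family and main hormone and lineage genes, up to 6 called genes per direction in each of 67 lists and families, up to 15 rises and 15 falls outside the division lists, genes called between populations and, where a list had no call, up to 3 of smallest p. Called genes of the lists, and rises and falls outside the division lists, were taken only if their groups did not overlap. All 353 called genes met this condition. The comparison, the lists and this rule were chosen with earlier results of these data known. Lists are described by counts and medians, with no test of the list. Alternatives changed the arrays fitted, both blocks, the trend, array weights, scaling, the probe set rule and the filter on dim genes, and left out each array or mouse.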

Additional observations from a re-analysis of the deposited data

Results flagged for a closer look

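The knockout effect in 4 named genes differed between non-clonogenic luminal cells and the mean of the other 3 populations by limma. The difference was -2.56 for Lcn2, -2.70 for Cp, -1.84 for Cd1d1 and -1.21 for Clic6. Cp and Cd1d1 also fell in ductal progenitors, by -1.38 and -2.05, and neither effect differed from that of non-clonogenic luminal cells by the test. Lcn2 differed from each population taken alone, and Clic6 rose by 1.79 in alveolar progenitors. Without a single array or mouse, between 0 and 145 genes passed this comparison.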

How the results depend on the processing

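Of the 84 called genes that the naming rule took, 0 reversed under any alternative. The rule took only genes whose groups did not overlap, so leaving out an array or mouse could hardly turn their sign. Between 63 and 84 of these genes passed under each alternative that kept all 16 arrays, except 83 of 83 without dim genes. Where the 4 arrays were fitted alone, 21 passed. With those 4 arrays alone 80 genes were called lower, 6 higher and 42 lower outside the division lists. With the parent pair as a replicate block 363 were called lower, 89 were called higher and 3 differed from the other populations. Of the named genes, Fads1 and Bcl2l1 then lost the call while Klf4 and Nrxn3 gained it. Testing every probe set gave 103 higher and 9 that differed from the other populations, and array weights gave 338 lower outside the division lists. Leaving out single arrays or mice gave 0 to 702 lower, 0 to 204 higher, 0 to 532 lower outside the division lists and 0 to 145 that differed from the other populations.

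Averaging all probe sets turned Cpeb3 to -0.000648 and Cpeb4 to 0.18. Over the fits that left out an array or mouse, effects crossed 0 for Cpeb1 (-0.19 to 0.16), Cpeb4 (-0.95 to 0.11), Tnfsf11 (-0.24 to 0.0246), Tnfrsf11a (-0.0567 to 0.40), Gata3 (-0.51 to 0.10), Elf5 (-0.0308 to 0.52), Cdkn1a (-0.10 to 0.77), Cdkn1b (-0.62 to 0.23) and Ptn (-0.0483 to 4.92). The list medians that crossed 0 were those of glycolysis and hypoxia (-0.0475 to 0.87), heat shock proteins (-0.0729 to 0.64) and interferon-stimulated genes (-0.58 to 0.0454). For the reversals the cause was not tested. Where an array is left out, the lone remaining sample is assumed to vary like the other groups. Quantile normalization and equal array medians moved the median of all genes to 0.0236 and 0.0189. Genes below the lower quartile of the arrays are measured near background.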
